A study of Zea mays with 32 samples.

Results

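Tabloncillo, a maize landrace, was compared with 7 other landraces of Zea mays in RNA from leaf primordia. Its 4 libraries, 2 of the fifth leaf (leaf 5) and 2 of the ninth (leaf 9), are those whose label names this genotype, out of 32 libraries in all. The other 28 libraries came from Jala, Palomero, Nal-tel, Gordo, Zapalote, Mushito and Reventador, also with 2 for each leaf. All 8 landraces were grown at 35 °C, which the labels call heat, and primordia were taken at plastochron 4, a stage counted by the leaves started since. Libraries from other temperatures were not analysed here, so none of the differences can be read as a response to heat. The comparison covered 26156 of the 39756 genes in the deposited table, those with a mean normalized count of at least 10 over the 32 libraries.

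Landraces are open-pollinated populations that farmers have maintained and selected locally, so the plants of one of them carry different alleles. Differences in transcript level between landraces can reflect differences in regulatory sequence, in gene copies or in genes that are present in some plants and missing in others. In the classical description of Mexican maize, Tabloncillo belongs to the west of the country, Reventador is named among its relatives there, and Jala is described as related to Tabloncillo. A leaf primordium is the young leaf on the flank of the shoot tip, in which veins are laid down before the blade unfolds, and the series as titled is about vein density. The labels do not say how many plants went into a library. Nothing in them says that replicates came from separate plants, so p-values measure the spread between these libraries, which may be technical.

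The libraries held 69.3 M to 121.0 M recovered reads in Tabloncillo and 54.8 M to 83.3 M in the other landraces. A gene above 0 was counted as detected, and the 4 Tabloncillo libraries had 29699 ± 240 such genes (SD, n = 4) against 29205 ± 484 (SD, n = 28) in the rest (two-sided exact permutation test over samples, p = 0.0582). The test takes the libraries as exchangeable, although 4 share a landrace. By landrace means Tabloncillo ranked first of 8, with Mushito next at 29570 and Reventador last at 28652. This rank was not adjusted for depth, and all 4 Tabloncillo libraries were deeper than the median of the other 28, 65.2 M. At a normalized count of at least 1 the numbers were 29496.8 and 29140.5 (same test, exact p = 0.162). At a normalized count of at least 10 the numbers were 24974 and 24958 (same test, exact p = 0.942). Each Tabloncillo library had its highest correlation, 0.951 or 0.952 across the tested genes, with the other library of its leaf. For leaf 5 replicate 2 this was a near tie, 0.9511 against 0.9505 with leaf 9 replicate 2. Its median absolute difference was 0.358 to leaf 5 replicate 1, but 0.352 and 0.346 to leaf 9 replicates 1 and 2. The leaf labels remained uncertain. In the 5723 genes called between leaves in the other 7 landraces, the ninth minus the fifth leaf difference of Tabloncillo, in the direction of those 7, had a median of 0.37 for leaf 5 replicate 2 with leaf 9 replicate 1. It was 0.084 for replicate 2 with replicate 2, -7.9e-05 for 1 with 1 and -0.32 for leaf 5 replicate 1 with leaf 9 replicate 2 (log2 scale). All comparisons below therefore use the mean over both leaves. The deposited IDs are not paired with gene names, and 0 of them matched the reference table, so genes are given by ID without function or position, and the labelled tissue could not be checked against marker genes.

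Over both leaves, 1866 genes differed between Tabloncillo and the mean of the other 7 landraces, 7.13% of those tested (limma, Benjamini-Hochberg adjusted p under 0.05). Of these, 912 were higher in Tabloncillo (3.49%) and 954 lower (3.65%). The median difference of the higher genes was 1.03 and that of the lower genes -1.07 on the log2(normalized count + 1) scale, while the median over all tested genes was 0.0019. A difference of at least 2-fold was found in 468 higher and 490 lower genes, of at least 4-fold in 245 and 264, and of at least 16-fold in 40 and 24. The smallest difference that passed was 0.18 and the largest 8.12. In 44 of the higher genes the other 28 libraries averaged under 10, and in 229 of the lower genes Tabloncillo did. The 44 reached the filter only through Tabloncillo and could hardly be lower there. The 229 reached it through the other 28 libraries, and a higher Tabloncillo value would not have removed them from the test. The count of higher genes is therefore partly set by the filter. The split by direction depends on the method: edgeR on the recovered reads called 2085 genes, of which 68% were higher, against 48.9% in limma. Without leaf 5 replicate 1 and leaf 9 replicate 2 of Tabloncillo, the pair that ran against the leaf difference, 590 genes passed and 34.4% of them were higher; 461 of the 590 were among the 1866. Leaving out 1 library gave 1073 genes without leaf 5 replicate 2 of Tabloncillo and 1016 without its leaf 9 replicate 2.

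That test measures Tabloncillo against the spread between replicate libraries, not against the spread between landraces. With the 28 other libraries as 1 group and leaf as a covariate, so that differences among the 7 landraces count as spread, 228 genes passed (0.872%), 114 in each direction. All 228 were among the 1866. This fit takes the libraries as independent although sets of them share a landrace, so its p-values can be too small. With landrace as a random block, 41 genes passed (0.157%), 20 higher and 21 lower. That fit used 1 correlation within landraces for all genes, 0.253. Genes whose libraries agree more closely within landraces get too small a p-value. The fit is thus not a test of 1 landrace against 7. The 41 were also among the 1866, and their median absolute difference was 3.29 on the log2 scale.

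Genes expressed at low and middle levels made up most of the list. Among tested genes with a mean normalized count from 10 to 100, 8.92% passed, with a median absolute log2 difference of 2.31. From 100 to 1000 the share was 8.55%, with a median of 1.15. From 1000 to 10000 it was 5.46% and from 10000 upward 4.34%, with medians of 0.39 and 0.35. The 56 genes of the top class comprised 13 higher and 43 lower in Tabloncillo. The median standard error fell from 0.52 in the lowest class to 0.098 in the highest, so smaller differences could pass among abundant transcripts. A difference of at least 2-fold was found in 2648 tested genes, of which 1690 did not pass. In those 1690 the 4 Tabloncillo libraries had a median SD of 1.18 on the log2 scale, against 0.84 in the genes that differed 2-fold and passed.

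The genes with the largest rises and falls, counting only genes that averaged 100 or more and had all 4 Tabloncillo libraries above or all below the other 28, were Zm00001eb243660 and Zm00001eb220150 on the high side and Zm00001eb097590 and Zm00001eb431530 on the low side. They were taken from 17 higher and 14 lower genes that met the rule. The rule used the same libraries and the same threshold, so their p-values describe the libraries and do not support the choice.

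Zm00001eb243660 had normalized counts of 922.6 and 882.3 in leaf 5 and of 1239 and 2285 in leaf 9 libraries of Tabloncillo. The other 28 libraries ran from 0 to 625.8 with a median of 20.7, and 13 of them held 3 reads or fewer. Tabloncillo stood above all others, and Palomero came next: it ran from 368.1 to 625.8, and Gordo had 0 in one leaf 5 library against 177.2 in the other. The log2 difference was 6.15 (SE 1.19, limma adjusted p = 0.00335). The limma adjusted p was 0.0969 once the spread between landraces was counted and 0.709 with landrace as a random block, so neither fit called it. Over its alternatives the limma, edgeR and DESeq2 adjusted p ran from 0.000133 to 0.709.

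Zm00001eb220150 stood at 342.9 and 450.3 (leaf 5) and 287.8 and 894.3 (leaf 9) in Tabloncillo. Elsewhere it ran from 0 to 254, with a median of 23.2. The landraces nearest to Tabloncillo were Palomero, from 87 to 254, and Jala, from 82.6 to 198.6, while Reventador had 0 in 3 libraries and 3.99 in 1. The log2 difference was 4.41 (SE 0.78, limma adjusted p = 0.00165). With the spread between landraces the adjusted p was 0.113 and with the random block 0.683, in a range over alternatives from 3.51e-08 to 0.683. Without the pair of libraries named above, the adjusted p was 0.0577 here and 0.0764 in Zm00001eb243660.

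Zm00001eb097590 was nearly silent in Tabloncillo, with 0 and 4.08 (leaf 5) and 0 and 1.9 (leaf 9). At most 4 reads were counted in any of these libraries, and 3 of the 4 held 3 reads or fewer. The other 28 libraries ran from 25.5 to 610.2 with a median of 206.1, so every other landrace expressed the gene. Its levels were lowest in Palomero, from 25.5 to 66.1, and highest in Jala, from 378 to 610.2. The log2 difference was -6.40 (SE 0.57, limma adjusted p = 1.89e-06), and with landrace as a random block the adjusted p was 0.000311, the highest over its alternatives, whose lowest was 4.34e-17.

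Zm00001eb431530 was also low, at 3.93 and 12.2 (leaf 5) and 3.93 and 4.75 (leaf 9). The other libraries ran from 13.5 to 2084 with a median of 362.7. The lowest of them, a leaf 9 library of Palomero, came close to the highest Tabloncillo library, while Gordo and Reventador had means of 1169 and 1185. The log2 difference was -5.51 (SE 0.61, limma adjusted p = 1.67e-05). With the random block the adjusted p was 0.0146, in a range over alternatives from 1.26e-16 to 0.0146. The sizes of differences against near-silent libraries depend on the pseudocount: from 0.1 to 10 added counts the log2 difference of Zm00001eb097590 went from -8.25 to -3.98.

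**Figure D1:**
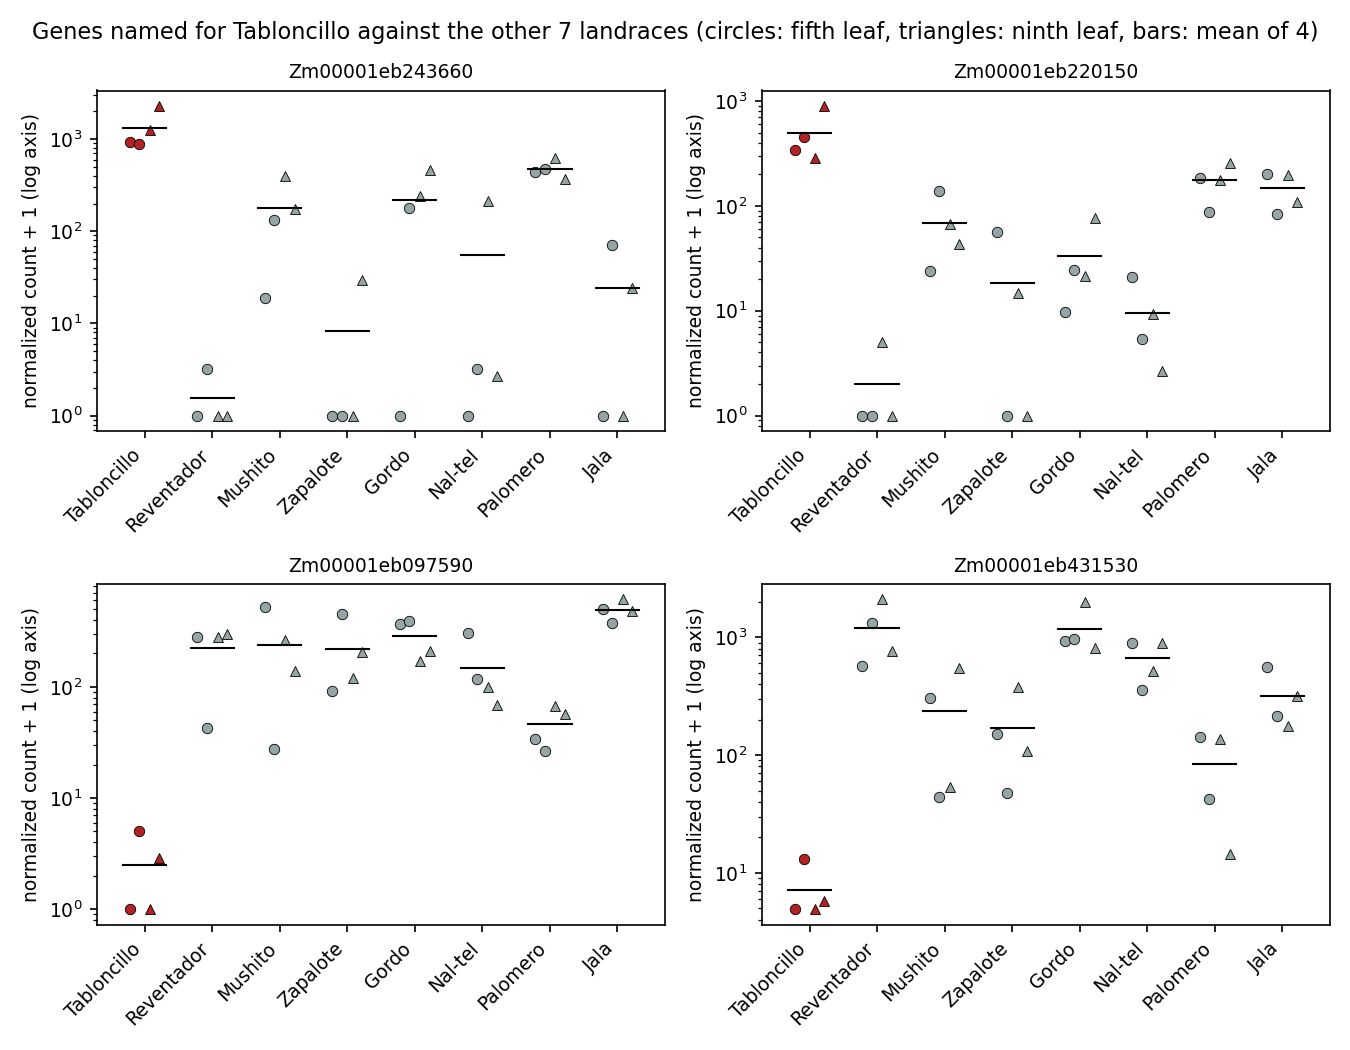
Normalized counts plus 1 on a log axis in each of 32 libraries, by landrace, for the 4 genes named in the main comparison. Circles are leaf 5 and triangles leaf 9 libraries, and bars are means of 4. In Zm00001eb243660 the Tabloncillo libraries (red) lie from 882.3 to 2285 above all others, and in Zm00001eb097590 from 0 to 4.08 below all others.

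To see how the 1866 genes are spread over the other landraces, each was compared with the 4 libraries of every other landrace. Of the 912 higher genes, 37 cleared all 7 landraces, 70 cleared 6, and 127 cleared 5, where clearing means that the 4 libraries of both landraces do not overlap. The largest classes were 181 genes that cleared 3 landraces, 168 that cleared 2 and 167 that cleared 4. In 63 the Tabloncillo libraries cleared no other landrace. Of the 954 lower genes, 20 cleared all 7, 49 cleared 6 and 105 cleared 5, while 215 cleared 3 and 92 cleared none. Among all tested genes, 80.6% lay above no other landrace in this sense and 79.5% below none. Above 1 landrace lay 10.9% of all tested genes, above 2 4.26%, above 3 2.07% and above 4 1.15%. Above 5, 6 and 7 lay 0.547%, 0.283% and 0.141%. Below 1 to 7 landraces in turn lay 11.6%, 4.68%, 2.34%, 1.16%, 0.463%, 0.187% and 0.0765%. The 1866 genes were chosen for differing, so their counts describe them and do not test them.

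**Figure D2:**
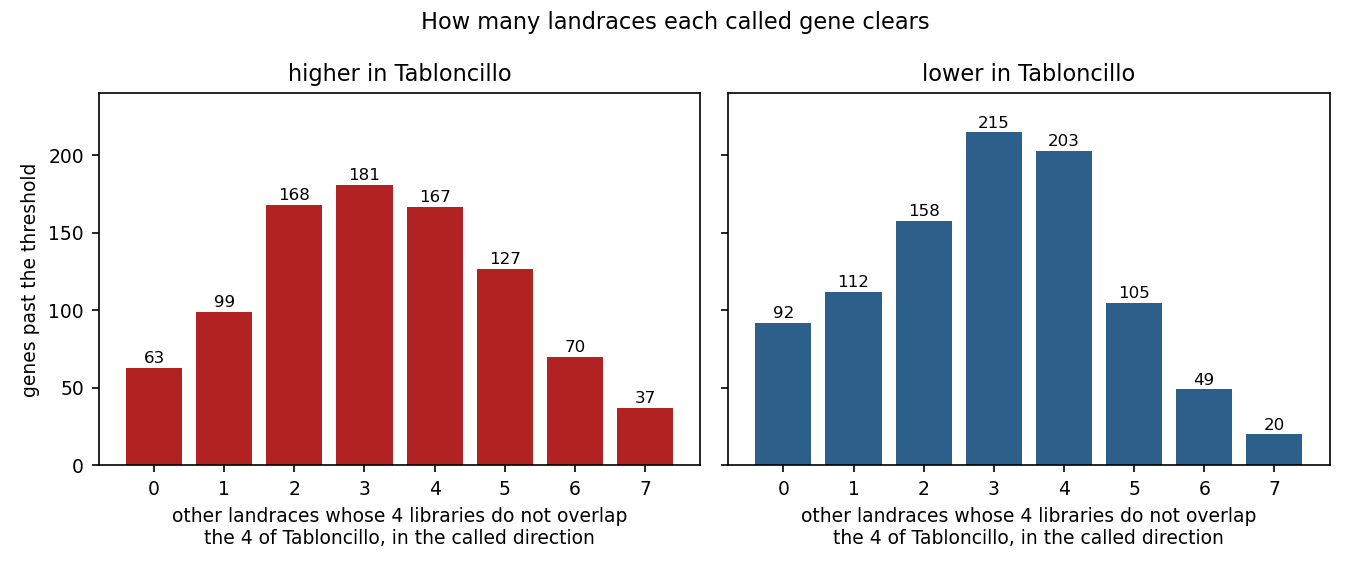
Number of genes past the threshold (vertical axis) by the number of other landraces whose 4 libraries do not overlap with the 4 of Tabloncillo (horizontal axis), for the 912 higher and the 954 lower genes. Both distributions peak at 3 landraces, with 181 and 215 genes, and 37 and 20 genes clear all 7.

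By landrace means, Tabloncillo was the highest of the 8 in 709 of the 912 higher genes and the lowest in 717 of the 954 lower ones, which the choice of genes favours. Over all tested genes it was the highest in 12.2% and the lowest in 12.5%. The landrace that came next was most often Jala, in 21.1% of the higher and 22.2% of the lower genes. Over all tested genes Jala was the highest of the other 7 in 13.9% and the lowest in 14%. Reventador came next in 13.3% and 14.7%, although over all tested genes it was the highest of the 7 in 18.9% and the lowest in 21.1%. These shares were not tested. All 4 Tabloncillo libraries lay above the median of the other 28 in 804 of the higher genes and below it in 809 of the lower ones, against 11.2% and 11.4% of all tested genes. The test that chose the genes used the same libraries, so this agreement is partly built in. By library, the median deviation from that median in the lower genes was -0.69 and -0.75 for leaf 5 and -0.94 and -0.99 for leaf 9. In the higher genes it was 0.85 and 0.85 (leaf 5) and 0.88 and 1.04 (leaf 9).

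In 57 genes, 0.218% of those tested, the 4 Tabloncillo libraries lay outside the range of all other 28. In 37 they lay above (0.141%) and in 20 below (0.0765%), and all 57 also passed the limma threshold. Genes that reached the filter through Tabloncillo alone could only lie above, so 37 against 20 is no test of direction. The median difference was 2.55 in the 37 genes and -2.21 in the 20, on the log2 scale. For most genes the separation was narrow: the gap between the nearest libraries had a median of 0.41 above and 0.27 below, and it reached 1 on the log2 scale in 10 and in 2 genes. Counted in the same way, the other landraces had between 27 such genes (Zapalote) and 341 (Reventador), with 41 in Mushito and 87 in Jala. Of the 57 genes, 50 passed with the spread between landraces in the residual and 29 with landrace as a random block, that is 87.7% and 50.9%. Those 29 were 70.7% of the 41 genes called by the random block. The 57 genes were chosen on the same libraries that all these fits used, so their passing is partly built in. With fewer Tabloncillo libraries the condition is easier to meet: leaving out 1 of them gave from 87 to 137 genes, and leaving out the pair of doubtful ones gave 255.

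**Figure D3:**
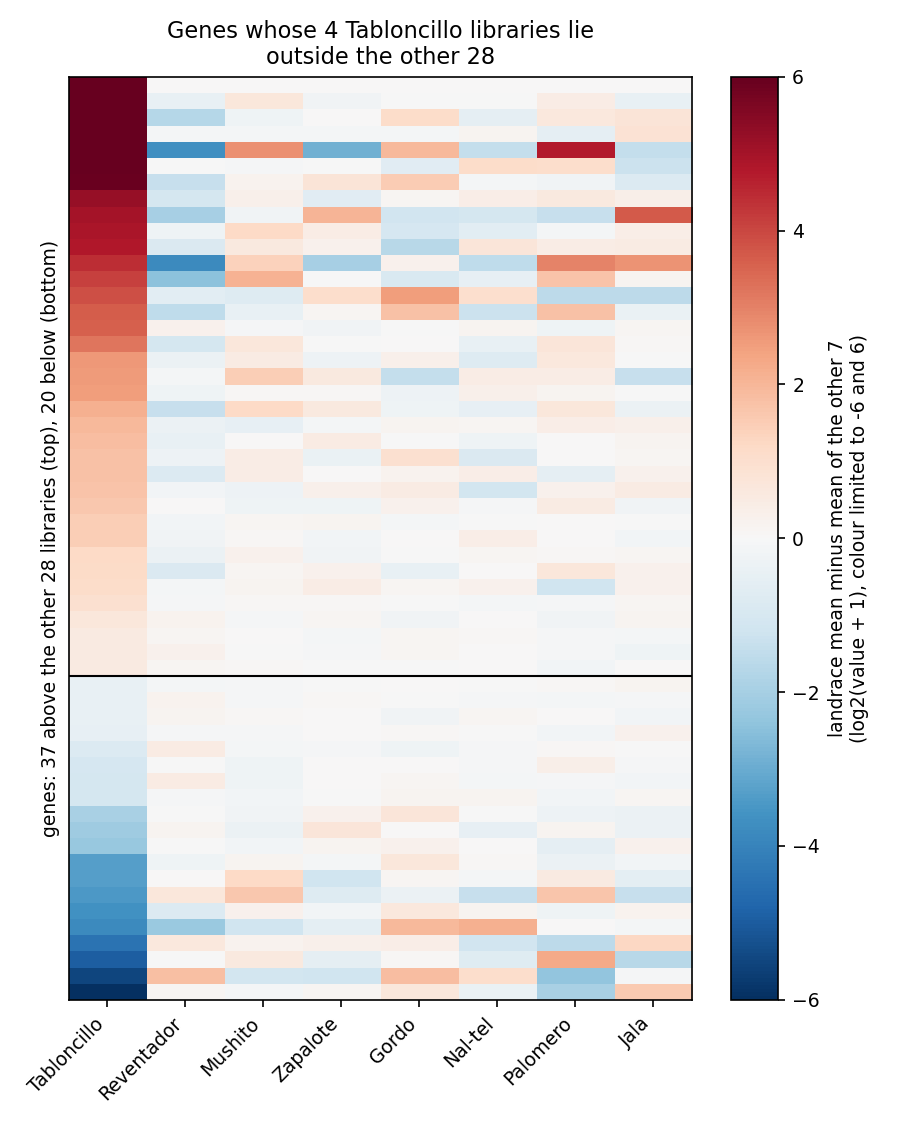
Landrace means minus the mean of the other 7 landraces, on the log2(normalized count + 1) scale (colour, limited to -6 and 6), for the 57 genes (rows) whose 4 Tabloncillo libraries lie outside the other 28, by landrace (columns). The 37 genes above the line are higher and the 20 below it lower in Tabloncillo, with median differences of 2.55 and -2.21.

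Genes in an on or off state were counted on the recovered reads over all 39756 genes, with 3 reads or fewer in a library as the floor. In 7 genes (0.0176%) the 4 Tabloncillo libraries were above the floor and the other 28 at it. In 1 gene (0.00252%) the reverse held. Leaving out 1 Tabloncillo library gave up to 12 and 3 such genes, and leaving out the doubtful pair gave 21 and 5. The gene at the floor in Tabloncillo alone, Zm00001eb370970, was named for that after its values were seen and had at most 3 reads in a Tabloncillo library. In the other libraries it ran from 4.16 to 81.4 normalized counts with a median of 27.2, so its level was low everywhere. Of the 7 genes, 6 were too low to be tested. The one that was tested, Zm00001eb292820, had 0 reads in all other 28 libraries. In Tabloncillo it stood at 82.5 and 115.1 (leaf 5) and 249 and 776.5 (leaf 9). It reached the filter on low values through Tabloncillo alone, so it could only be found higher there and its p-value is not given as support. Of the 6 untested genes Zm00001eb387400 had the highest minimum in Tabloncillo, with 30.5 and 42.8 for leaf 5 and 18.5 and 36.1 for leaf 9, against at most 3 reads in any other library. It and the next pair, Zm00001eb043280 and Zm00001eb043290, whose IDs follow each other, were picked after their values were seen. Of the pair, the first had 23.6 and 11.2 (leaf 5) and 3.93 and 93.1 (leaf 9), and the second 43.2 and 21.4, then 10.7 and 68.4. Both were highest in leaf 9 replicate 2 and lowest in leaf 9 replicate 1 of Tabloncillo. Elsewhere no library held more than 2 reads of the first or 1 read of the second. Reads without molecular identifiers do not count molecules one by one, and the floors and intervals given here take in counting error alone.

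A looser rule took a gene as off in a landrace at 3 reads or fewer in all 4 libraries and as on at a normalized count of at least 10 in all 4. In Tabloncillo 229 genes, 0.576% of the 39756, were off that were on in at least 1 other landrace. By the same rule the other landraces had from 168 in Mushito to 392 in Reventador, so Tabloncillo lay within their range. Of these, 170 were on in 1 landrace, 39 in 2 and 16 in 3, and no gene was on in more than 5. Conversely, 117 genes on in Tabloncillo were off in 1 other landrace, 53 in 2, 13 in 3, and 3 in all 7, as many as in Zapalote. By partner, genes off in Tabloncillo were most often on in Palomero (77) and least often in Zapalote (24). Genes on in Tabloncillo were most often off in Reventador (82) and least often in Zapalote (31). Reventador also had the most genes off by this rule, 392, while Mushito, not Zapalote, had the fewest, 168. The counts by partner were not adjusted for these totals. Jala, with 40 and 56, lay between.

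Against each of the other landraces singly, over both leaves, the longest list was that for Reventador, with 4462 genes past the limma threshold (17.1% of those tested), 2460 of them higher in Tabloncillo. Nal-tel followed with 3064 (11.7%, 1703 higher). Palomero gave 2100 (8.03%, 949 higher) and Gordo 2093 (8%, 966 higher). Jala gave 1477 (5.65%, 778 higher), Zapalote 1406 (5.38%, 710 higher) and Mushito 1378 (5.27%, 557 higher). The 7 comparisons share the Tabloncillo libraries. Several lists were much shorter when 1 library was left out, which also leaves fewer libraries in its group. Whether the values of the library itself mattered was not tested. Without leaf 9 replicate 1 of Reventador its list held 2894 genes, and without leaf 9 replicate 2 of Mushito or of Gordo theirs held 807 and 1281. The Nal-tel list held 1803 genes without leaf 9 replicate 2 of Tabloncillo, and 1893 or 1978 without leaf 9 replicate 1 or 2 of Nal-tel. The Palomero list held 1284 without its leaf 9 replicate 2 and 1395 without its leaf 5 replicate 1. The Zapalote list held 712 without its leaf 5 replicate 2, 810 without its leaf 9 replicate 1 and 820 without leaf 5 replicate 2 of Tabloncillo, and the Jala list 818 without its leaf 5 replicate 1. Fitted to the 8 libraries of each pair of landraces alone, every list was shorter by more than 1.5 times: Reventador gave 2159 genes, Palomero 1274, Nal-tel 1161, Gordo 709, Jala 494, Mushito 423 and Zapalote 250. Reventador stayed first, Palomero moved ahead of Nal-tel, and Zapalote became the shortest. The median absolute difference over all tested genes was also set side by side, with 0.29 for Reventador, 0.26 for Nal-tel and 0.21 for both Jala and Mushito on the log2 scale. Across genes, which are not independent replicates, the median correlation with Tabloncillo libraries over 16 pairs was 0.926 for Jala, 0.923 for Zapalote, 0.921 for Nal-tel, 0.920 for Mushito, 0.917 for Gordo, 0.915 for Palomero and 0.911 for Reventador. Its order was not that of the lists, since Nal-tel, with the next longest list after Reventador, stood above Mushito, with the shortest. Without the pair of doubtful Tabloncillo libraries the counts were 3093 for Reventador, 1457 for Nal-tel, 1363 for Palomero, 1118 for Gordo, 1069 for Mushito, 978 for Zapalote and 810 for Jala, so Jala then had the shortest list.

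**Figure D4:**
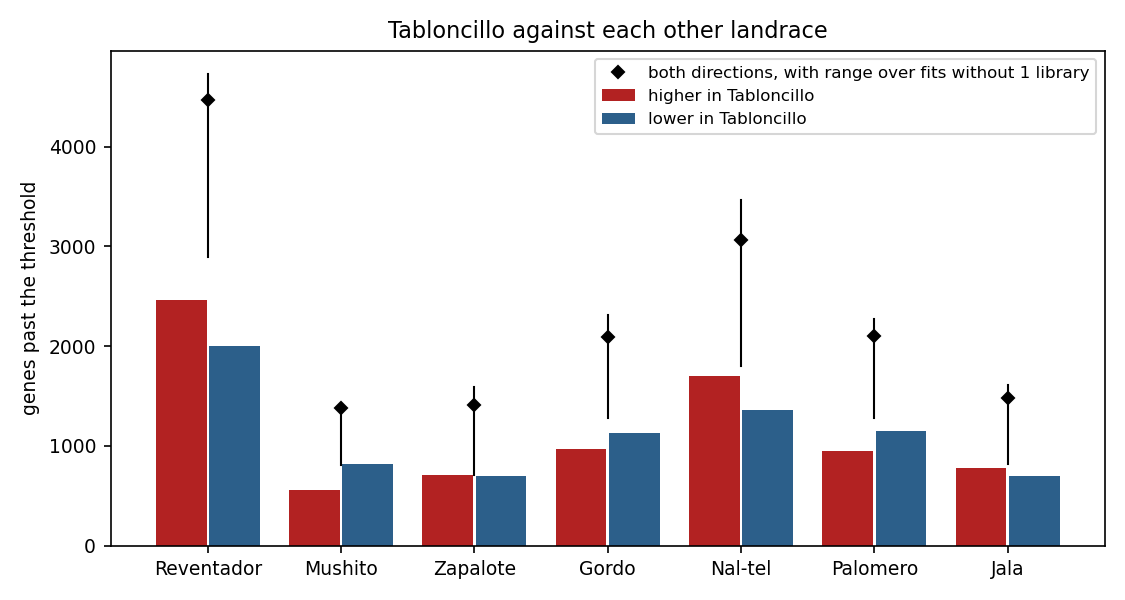
Genes past the limma threshold (vertical axis) for Tabloncillo against each other landrace (horizontal axis), higher in red and lower in blue. Diamonds are the counts in both directions, from 1378 for Mushito to 4462 for Reventador, and lines span the fits that each left out 1 library.

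From each single comparison the gene with the largest rise and the gene with the largest fall were taken, provided that the gene averaged 100 or more and that the 2 sets of 4 libraries did not overlap and the gene was not named already. The average was taken over the 8 libraries compared. Several were close to silent in one of the 2 landraces. Zm00001eb134680, Zm00001eb204350 and Zm00001eb292820 reached the filter on low values only through Tabloncillo, Zm00001eb308100 only through Reventador and Zm00001eb084600 only through Jala, so each had to differ and its p-value describes the libraries without supporting the choice. Where a group held no read, the fold was set against 3 reads in each library and is a lower bound. Where it held a few reads, the ratio is given with a 95% interval that covers counting error only. The interval takes reads as independent, which was not tested. Low counts were often even, as in Zm00001eb375760 with 0, 2, 2 and 2 reads in Tabloncillo, so the intervals may be too narrow.

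Against Reventador, Zm00001eb134680 stood at 659.3 and 341.3 (leaf 5) and 402.4 and 875.3 (leaf 9) in Tabloncillo. In Reventador 3 reads were counted in all, a ratio of 723 with an interval from 247 to 3504.5 (limma adjusted p = 2.68e-05). It was low in all other landraces too, with a highest value of 63.1 in a leaf 5 library of Zapalote. Zm00001eb308100 showed the opposite state. It had 0 in both leaf 5 libraries and 2.25 and 1.9 in the leaf 9 libraries of Tabloncillo, against 973.5 to 1576 in Reventador (limma adjusted p = 1.06e-06). Its level was high in Reventador alone: among the other landraces 1 leaf 9 library of Mushito reached 40.2.

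Against Mushito, Zm00001eb333930 was on in Tabloncillo, at 775.3 and 1103 (leaf 5) and 1175 and 664.3 (leaf 9), and stood between 0 and 5.67 in Mushito (log2 difference 8.71, SE 1.08, limma adjusted p = 4.01e-05). Reventador was higher still, from 1243 to 4163, and Jala and Zapalote overlapped with Tabloncillo, whereas Palomero had at most 19.8. Zm00001eb265380 was at or near 0 in Tabloncillo, from 0 to 5.06, and stood between 518.3 and 1535 in Mushito (log2 difference -8.49, SE 1.28, limma adjusted p = 0.000293). This gene was uneven within landraces. In Gordo it stood at 481.8 in 1 leaf 9 library and at 0, 4.12 and 4.87 in the other 3.

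Against Zapalote, Zm00001eb103500 separated the landraces into a high and a low state at a high level of expression. It stood at 155761 and 127617 (leaf 5) and 98847 and 72066 (leaf 9) in Tabloncillo, between 0.108% and 0.217% of a library's reads. In Zapalote it ran from 241.9 to 310.2 (log2 difference 8.60, SE 0.60, limma adjusted p = 3.95e-08). Reventador, Nal-tel, Palomero and Jala shared the high state, with values from 76552 to 187449. Gordo shared the low one, from 150.4 to 426. In Mushito the 4 libraries were split, with 1940 and 261.7 (leaf 5) and 6804 and 315 (leaf 9). Zm00001eb375760 was at the floor in Tabloncillo, with 6 reads in all, and stood between 640.3 and 1594 in Zapalote, a ratio of 950 with an interval from 436 to 2588 (limma adjusted p = 0.00373). It was on in some libraries of Gordo, Jala and Nal-tel and off in others of the same landraces.

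Against Gordo, Zm00001eb087650 stood at 514.9 and 768.2 (leaf 5) and 350.7 and 330.7 (leaf 9) in Tabloncillo. Gordo had no read of it, so Tabloncillo was at least 161-fold higher (limma adjusted p = 0.000142). Jala had none either, while Zapalote, from 228 to 632, overlapped with Tabloncillo. Zm00001eb066930 had 2 reads in Tabloncillo, in a single library, and ran from 458.5 to 806.3 in Gordo, a ratio of 1436 with an interval from 397 to 11855 (limma adjusted p = 8.79e-05). Both leaf 9 libraries of Zapalote held it at 789.4 and 425.2 and both leaf 5 libraries at 0.

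Against Nal-tel, Zm00001eb204350 showed how far libraries of Tabloncillo can lie apart. It stood at 3.93 in replicate 1 and 5425 in replicate 2 of the fifth leaf, while both leaf 9 libraries were high, with 577.8 and 2202. The other 28 libraries ran from 0 to 5.67, so 3 Tabloncillo libraries were far above all of them and 1 was within their range. Nal-tel had no read, and the mean of Tabloncillo was at least 671-fold higher (limma adjusted p = 0.000388). Fitted to the 8 libraries of these 2 landraces alone the adjusted p was 0.0502, in a range over alternatives from 1.72e-05 to 0.0502. Against the other 7 together the log2 difference was 8.12. Zm00001eb138430 was low in Tabloncillo, from 4.08 to 7.86, and stood between 1649 and 3148 in Nal-tel (log2 difference -8.25, SE 0.92, limma adjusted p = 1e-05). Reventador, Zapalote, Gordo and Jala were low as well, with at most 84, while Palomero ran from 336.5 to 860.9. Mushito was uneven, with 11.3 and 790.3 (leaf 5) and 2176 and 173.1 (leaf 9).

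Against Palomero, Zm00001eb404790 stood at 471.6 and 1236 (leaf 5) and 284.4 and 496.1 (leaf 9) in Tabloncillo. Palomero had no read, so Tabloncillo was at least 181-fold higher (limma adjusted p = 9.32e-06). Jala, from 205 to 1241, overlapped with Tabloncillo, and the next highest value, in Mushito, was 399.8. Zm00001eb004080 ran from 1.97 to 13.2 in Tabloncillo and from 3639 to 5587.5 in Palomero (log2 difference -9.46, SE 0.99, limma adjusted p = 4.4e-06). Mushito also expressed it, and in the remaining landraces the highest value was 133.1, in a leaf 5 library of Reventador.

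Against Jala, the gene with the largest rise was Zm00001eb292820, on in Tabloncillo and without a read in all other landraces, described above. The mean of Tabloncillo, 305.8 ± 322 (SD, n = 4), was at least 92.2-fold higher than in Jala (limma adjusted p = 4.6e-08). DESeq2 on the recovered reads gave an adjusted p of 0.339 for it, in a range over alternatives from 1.61e-12 to 0.339. Zm00001eb084600 had 2 reads in Tabloncillo and stood at 407.3 and 371.7 (leaf 5) and 575.1 and 133.6 (leaf 9) in Jala, a ratio of 898 with an interval from 249 to 7418 (limma adjusted p = 1.93e-07). The other 6 landraces had at most 2.21, and the log2 difference of Tabloncillo to all 7 was -1.10 (limma adjusted p = 0.176).

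**Figure D5:**
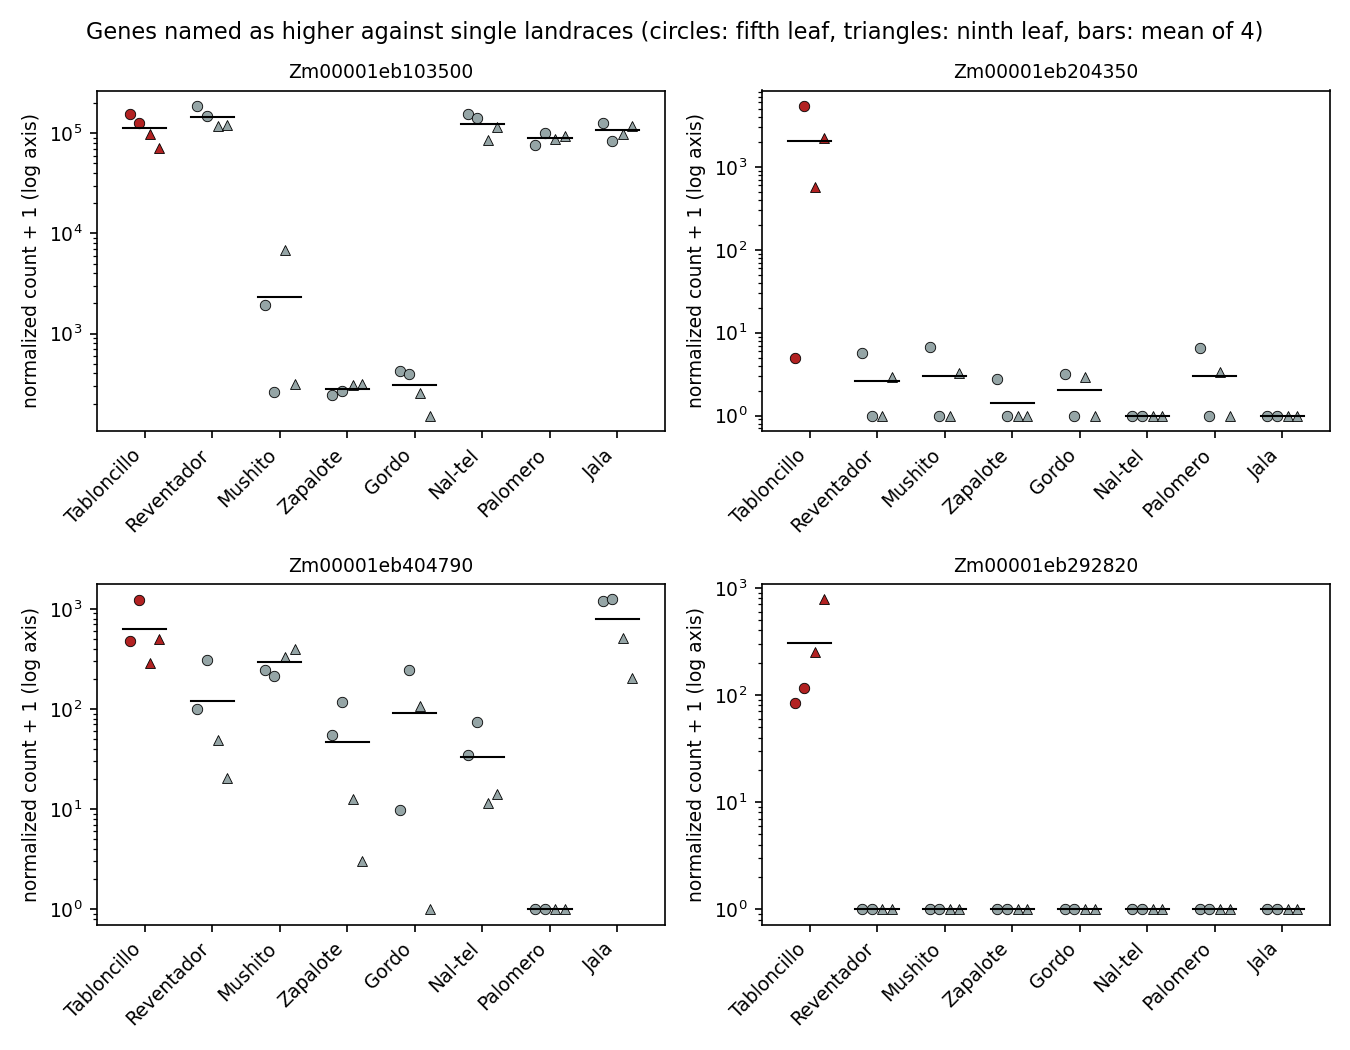
Normalized counts plus 1 on a log axis in each of 32 libraries, by landrace, for the genes with the largest rise against Zapalote, Nal-tel, Palomero and Jala. Circles are leaf 5 and triangles leaf 9 libraries, and bars are means of 4. Zm00001eb103500 has a high state in 5 landraces including Tabloncillo (red), Zm00001eb292820 is at 0 in all libraries but the 4 of Tabloncillo, and Zm00001eb204350 has 1 Tabloncillo library at 3.93.

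IDs were also taken in the order of their numbers, with no position implied. Of the 1866 genes, 243 (13%) had a direct neighbour among the tested IDs that was called in the same direction, and 109 (5.84%) one called in the opposite direction. A called neighbour of either direction was found for 18.6% of called and for 13.4% of uncalled genes. The longest run in 1 direction held 3 genes, and there were 11 such runs, 8 of them higher and 3 lower. In 53 blocks of up to 500 tested genes in ID order, the share called ran from 3.8% to 10.2% with a median of 7%. The genes that differed in Tabloncillo were thus found throughout the ID order, with no long run.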

How the data were processed

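Poly(A) RNA from maize leaf primordia was sequenced in 32 directional libraries of 8 landraces, per the labels' protocols. The authors deposited 1 table whose unit is a signal, namely read counts per gene that they had divided by a scaling factor for each library. The submitters' processing notes name STAR, featureCounts and DESeq2, with no version or role. The genome build and annotation are not given in the sources used here. In every library 100% of values were whole multiples of 1 step (tolerance 0.01), which gave the recovered reads. No per-sample column was left unused, and 3403 genes were at 0 throughout.

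Genes averaging 10 or more across the 32 libraries were tested with limma 3.58.1 (R 4.3.3) on log2(normalized count + 1), with 16 landrace and leaf means, an intensity trend and Benjamini-Hochberg adjustment over all 26156 genes at 0.05. The contrast was Tabloncillo over both leaves minus the mean of the other 7, or of 1 other. Since the table holds normalized values, edgeR 4.0.16 and DESeq2 1.42.0 on the recovered reads were alternatives. Other alternatives changed the pseudocount, filter, scaling, model and libraries. The main limma fit and the edgeR fit were tested on simulated data. Figures were drawn with matplotlib 3.10.9.

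Genes named are the 2 with the largest rise and the 2 with the largest fall in the main comparison, and 1 of each in every single comparison not already named, under the conditions given with them. Members and gene lists were chosen with earlier results of these data known. Lists by gene symbol were not used, because the IDs are not paired with symbols (0 matched the RefSeq table of Zm-B73-REFERENCE-NAM-5.0). Depth was 54.8 M to 121.0 M reads per library. Intervals cover counting error only.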

Additional observations from a re-analysis of the deposited data

Results flagged for a closer look

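Of 36 groups of 4 libraries checked, 5 held a library far from the other 3, meaning that its gap to the nearest library, as a share of the whole range, exceeded Dixon's critical value for 4 samples. For normally distributed values chance gives about 1 in 20 groups. Untransformed counts, some of them at 0, do not meet that condition, so 5 of 36 cannot be set against this rate. In Zm00001eb431530, low in Tabloncillo, leaf 5 replicate 2 stood at 12.2254 normalized counts and the other 3 libraries between 3.93 and 4.75. In Zm00001eb265380, leaf 5 replicate 1 of Mushito stood at 1535.13 and the other 3 between 518.3 and 644. In Zm00001eb066930 and Zm00001eb084600, single Tabloncillo libraries at 1.96515 and 1.12412 stood beside 3 libraries at 0, so these are cases of 2 reads against none. Leaf 9 replicate 1 of Tabloncillo held 121.017 M recovered reads, against 69.3 M to 73.1 M in the other 3.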

How the results depend on the processing

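For named genes, 850 of 858 values kept direction and side of the threshold, 8 lost the threshold and 0 turned. Those 8 belonged to Zm00001eb243660 and Zm00001eb220150, with 3 each, and to Zm00001eb204350 and Zm00001eb292820, with 1 each. The 858 values include 32 fits per gene that each left out 1 library. In single comparisons many of these dropped a library of neither landrace, which leaves the difference unchanged. The genes were also chosen for large differences without overlap, so the agreement is largely built in. The cause of the following shifts was not tested unless fewer libraries or a stricter condition explain them by construction. DESeq2 called 3088 genes against the other 7 landraces, 2165 against Mushito, 2357 against Zapalote and 2253 against Jala. With the spread between landraces counted, 228 and 41 genes passed. A gap of at least 1 on the log2 scale left 12 of the 57 genes outside the range of the other libraries. Fitted to 8 libraries, the single comparisons gave 2159 genes for Reventador, 1274 for Palomero, 1161 for Nal-tel, 709 for Gordo, 494 for Jala, 423 for Mushito and 250 for Zapalote.

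Without leaf 5 replicate 1 and leaf 9 replicate 2 of Tabloncillo, a choice made after seeing the data, the counts were 590 against the other 7, 1118 against Gordo, 1457 against Nal-tel, 1363 against Palomero and 810 against Jala. In that setting 255 genes lay outside the other libraries, 5 were at the floor and 21 above it in Tabloncillo only. Leaving out 1 library in turn gave 1016 to 2092 genes against the other 7, 2894 to 4724 against Reventador, 807 to 1430 against Mushito, 712 to 1592 against Zapalote and 1281 to 2310 against Gordo. It gave 1803 to 3468 against Nal-tel, 1284 to 2271 against Palomero, 818 to 1612 against Jala, 57 to 137 outside, 1 to 3 at the floor and 7 to 12 above it.

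The replicate numbers did not pair the samples: the correlation of deviations between same-numbered libraries ran from -0.18 to 0.11 and was above 0.1 in 1 of 8 landraces. With the replicate number as a block, 1877 genes passed against the other 7. Differences in genes of few reads are limited by depth.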

Other observations

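Some genes were at 3 reads or fewer in at least 1 library and at a normalized count of at least 100 in another library of the same landrace. Tabloncillo had 149 such genes, within the range from 93 in Nal-tel to 306 in Zapalote. Among the 149, the library at the floor was leaf 5 replicate 1 in 74 genes, leaf 5 replicate 2 in 62, leaf 9 replicate 1 in 44 and leaf 9 replicate 2 in 31, and a gene could be at the floor in more than 1 library. The median SD of the 4 libraries over tested genes was 0.36 on the log2 scale in Tabloncillo, 0.35 in Mushito and 0.25 in Palomero, the lowest of the 8.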
